A study of Mus musculus with 5 samples.

Results

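Igf2, the gene for insulin-like growth factor 2, and 9 other imprinted genes of fetal growth were followed in RNA-Seq of lung fibroblasts sorted at P6 (H19, Dlk1, Meg3, Peg3, Mest, Cdkn1c, Plagl1, Grb10 and Ndn). They were taken by symbol and are 10 of the 23478 genes in the count table. Igf2 was selected on its measured CPM, which differed among the Igf1r-deleted libraries, so its values are described without a test. The question asked of the other 9 was whether they had the same uneven pattern.

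All 5 libraries came from GFP-sorted cells of mice carrying Gli1-CreERT2 and the Rosa26-eGFP reporter, given 100 µg of tamoxifen per pup at P0 and at P1. There were 2 control libraries with an Igf1r Flox/Wildtype genotype and 3 Igf1r-deleted libraries with an Igf1r Flox/Flox genotype. Controls could lose 1 copy of Igf1r and carried Cre and tamoxifen as well, so the comparison is between loss of 1 and of 2 copies in cells where the Gli1 promoter drove Cre, and in their progeny. The labels do not say how many pups made a library or that libraries came from separate litters, so the p-values measure only the spread between these samples, which may be partly technical.

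An imprinted gene is expressed mainly from the copy inherited from a particular parent. Many paternally expressed members of the group, such as Igf2, Dlk1, Peg3, Mest and Plagl1, promote growth or mark fetal tissue, and several maternally expressed members, such as H19, Cdkn1c and Grb10, restrain it. Igf2 and H19 share enhancers and an imprinting control region, and the fetal levels of many of these genes decline as organs mature after birth. IGF2 protein signals through the IGF1 receptor and is cleared by IGF2R.

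Igf2 lies at chr7:142650766-142666816 on the minus strand of mm10, and H19, a non-coding RNA, at chr7:142575529-142578143 on the same strand. Dlk1 (chr12:109452823-109463336) and the non-coding RNA Meg3 (chr12:109541001-109571726) share the plus strand of a second cluster. Cdkn1c (chr7:143458339-143461050, minus) is near Igf2 on the same chromosome, with Cd81 and Tssc4 between them. Peg3 (chr7:6703892-6730431, minus) and Ndn (chr7:62346569-62350262, plus) are far from Igf2 on that chromosome. Mest (chr6:30723547-30748465, plus), Plagl1 (chr10:13060504-13131694, plus) and Grb10 (chr11:11930508-12038683, minus) are alone on theirs. Igf1r itself is also on chromosome 7, from 67952827 to 68233668.

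Igf2 and H19 each host a microRNA, a regulator with its own seed, and Meg3 and Mest host microRNAs too. The mature sequences within Igf2 and H19 are shown from RefSeq on GRCm38.p6 with the seed, bases 2 to 8, in capitals. Those of miR-483 lie in an intron of Igf2 and those of miR-675 in an exon of H19. No 2 of the 4 shared a seed, and mature microRNAs were not measured by these libraries.
miR-483-3p, chr7:142654932-142654952, minus strand: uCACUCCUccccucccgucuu
miR-483-5p, chr7:142654968-142654989, minus strand: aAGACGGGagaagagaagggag
miR-675-5p, chr7:142577112-142577133, minus strand: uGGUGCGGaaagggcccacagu
miR-675-3p, chr7:142577078-142577099, minus strand: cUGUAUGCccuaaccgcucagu

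Dlk1 was lower in each Igf1r-deleted library than in both controls, and its promoter is shown with the forkhead letters found in it. RefSeq promoters on GRCm38.p6, running from 250 bases before to 50 after a start, were in the table for 8 of the 10 genes, with 15 starts in all. They were searched on both strands for 5 motifs, among them GTAAACA, the core letters of FOXO factors, which IGF1R signaling holds inactive. In the Dlk1 promoter the match is on the reverse strand, so it reads TGTTTAC in capitals here, 2 times. These letters were in 3.65% of 32851 mouse promoters and in no other of the 15. The longer FOXO letters TTGTTTAC, found in 1.23% of mouse promoters, and a core CTCF motif, found in 0.0365%, were in none of the 15. The Plagl1 letters GGGGCCCC were in the promoter of Peg3 alone (1.08% of mouse promoters), and TATAAA in that of Meg3 alone (13.6%). A match of letters is not a measured binding site.
Dlk1 promoter, chr12:109452573-109452872, plus strand: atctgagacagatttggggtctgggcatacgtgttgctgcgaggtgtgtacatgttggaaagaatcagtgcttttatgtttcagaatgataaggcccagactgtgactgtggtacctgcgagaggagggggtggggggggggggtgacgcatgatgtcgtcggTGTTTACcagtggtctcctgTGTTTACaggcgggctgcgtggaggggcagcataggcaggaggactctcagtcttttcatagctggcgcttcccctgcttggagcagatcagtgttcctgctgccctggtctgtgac

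The libraries held 35116766 to 37597857 counts, and levels below are CPM, counts adjusted for library size, and for composition by edgeR's TMM factors. Igf1r was at 324 and 324 CPM in control cells and at 139.7, 177 and 194 CPM in Igf1r-deleted replicates 1, 2 and 3, with no overlap between the genotypes. Summed markers of myofibroblasts, matrix fibroblasts and adventitial fibroblasts were at 15185 to 30367 CPM each, and those of pericytes at 778 to 1057 CPM. Those of epithelial, endothelial, hematopoietic and mesothelial cells were at no more than 1221 CPM each, and erythroid globin genes were at or near 0. Single abundant genes made much of some sums, as Eln at 9150 to 17351 CPM among myofibroblast markers and Sftpc at 233 to 552 CPM among epithelial ones. The sums therefore do not give the share of each cell type. Xist and the Y-linked Ddx3y divided the libraries. Xist was at 170.3 and 435 CPM in Igf1r-deleted replicates 1 and 3 and at most 4.09 CPM elsewhere, and Ddx3y was at 0.227 and 0.0557 CPM in the same pair and at least 85.6 CPM elsewhere. Sex, as read from these genes, was therefore unequal between the genotypes, and fits with a term for sex are given below. Ddx3y was present in both controls and, of the Igf1r-deleted libraries, in replicate 2 alone. In those fits the genotype effect therefore rests on replicate 2 against the controls, because replicates 1 and 3 have no matching control.

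Igf2 was at 377 and 408 CPM in the control mice, beside 350.0, 143 and 145 CPM in Igf1r-deleted replicates 1, 2 and 3. Replicate 1 was just below both controls, and replicates 2 and 3 were far below all others. The log2 fold change was −0.88 with an SE of 0.373, and −1.45 without replicate 1. Replicate 1 exceeded replicate 2 by 1.29 and replicate 3 by 1.27 on the log2 scale. Of the Igf2 exon length, 64.5% is shared with other annotated genes, mainly the read-through model Gm49394, which is not a row of the count table.

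Replicates 2 and 3, which shared the low Igf2 level, differed in Xist and Ddx3y, whereas replicates 1 and 3 were alike in these and differed in Igf2. The part of sex in the Igf2 pattern was not tested, and sex was unequal between the genotypes. The library with the highest Igf2 of its genotype also had the lowest Igf1r.

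**Figure D1:**
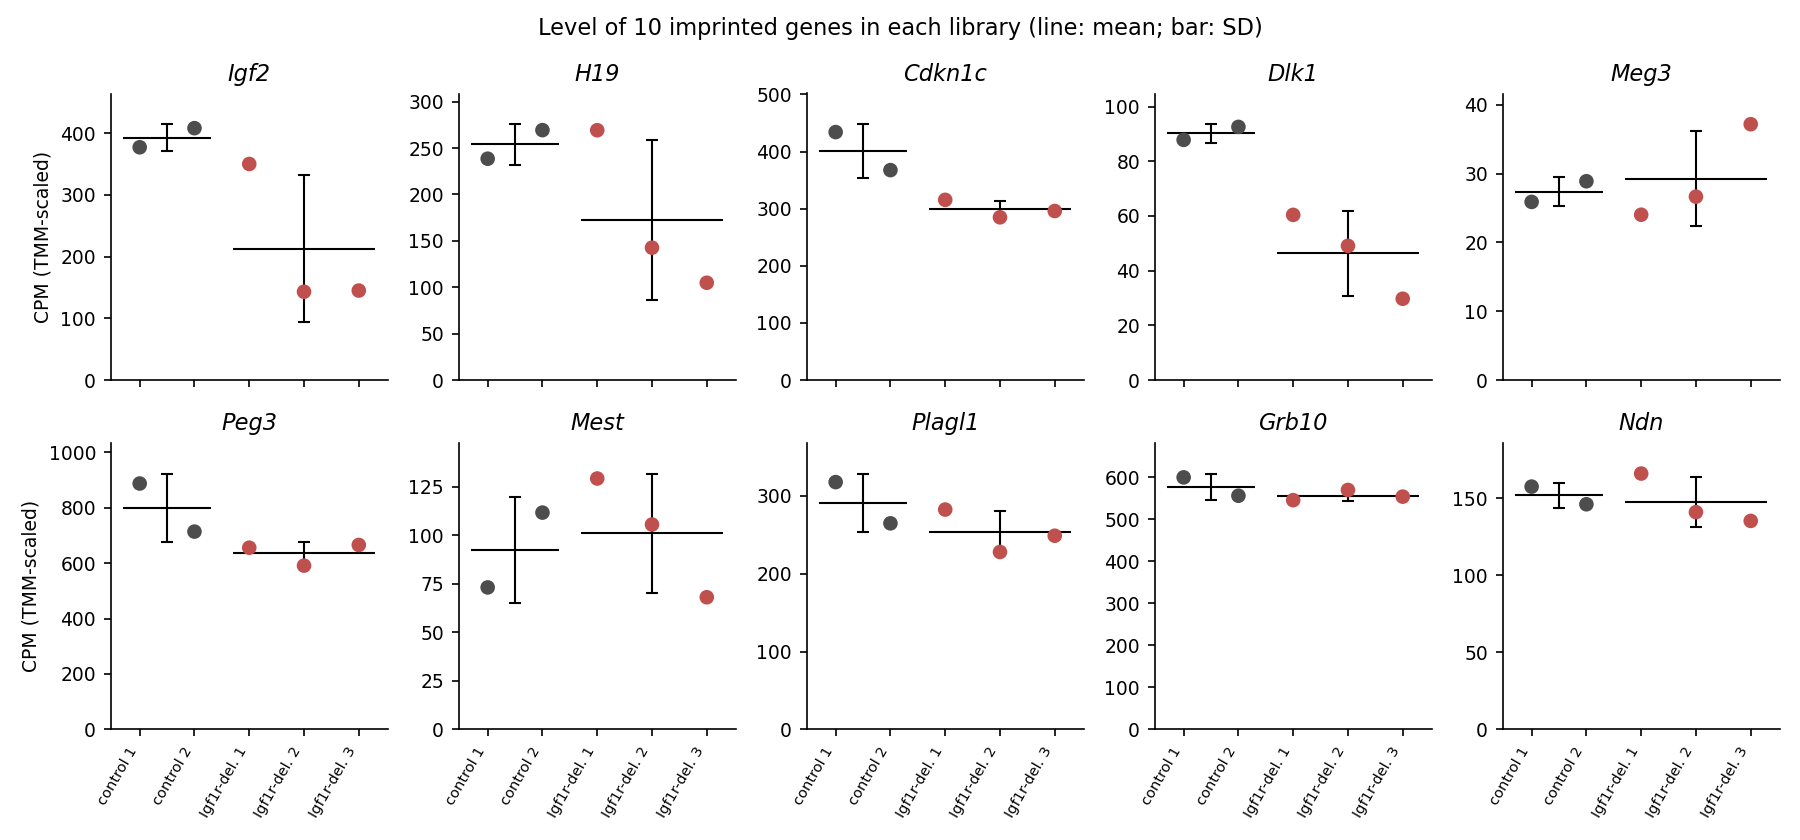
CPM of each of the 10 imprinted genes by library (TMM-scaled, each panel from 0), with points for single libraries and bars for the mean ± SD of 2 control and 3 Igf1r-deleted libraries. Igf2 in Igf1r-deleted replicate 1 is at 350.0 CPM beside 143 and 145 CPM in the other Igf1r-deleted libraries, and Grb10 is nearly level at 546 to 600.1 CPM.

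H19, the maternally expressed RNA that shares its enhancers with Igf2, followed Igf2 most closely of the 9. It was at 239 and 269 CPM in control cells, against 269, 143 and 105 CPM across the 3 deleted libraries. Replicate 1 was level with the higher control and replicates 2 and 3 were below both, so the genotypes overlapped. Replicate 1 exceeded replicate 2 by 0.92 and replicate 3 by 1.36 (log2), and only Igf2 and H19 of the 10 were over 0.5 above each of the others in this library, as 6.62% of all genes were. The log2 fold change between genotypes was −0.56 with an SE of 0.347 (adjusted p = 0.517, edgeR). It was −1.04 without replicate 1, the library with the high Igf2, and −0.30 without replicate 3.

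The ratio of Igf2 to H19 within a library was 1.58 and 1.51 in the controls and 1.30, 1.0 and 1.38 in the Igf1r-deleted libraries. All 3 Igf1r-deleted ratios were below both controls. With 2 libraries against 3 the smallest exact permutation p is 0.1, so the ratio was not tested. Between replicates 1 and 3 the counts of Igf2 and H19 differed more than their ratio did.

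Dlk1, which encodes a transmembrane and secreted regulator of fetal progenitors and adipocyte differentiation, did not overlap between the genotypes. Its level was 87.8 and 92.6 CPM with 1 intact Igf1r allele, and 60.4, 49.1 and 29.8 CPM with both alleles floxed. Each Igf1r-deleted library was below both controls, and replicate 3 was lowest. Between genotypes Dlk1 differed by a log2 fold change of −0.96 with a 95% interval from −1.56 to −0.36, at an unadjusted p of 0.00669 and an adjusted p of 0.354 (edgeR). DESeq2 gave an adjusted p of 0.0327. Replicate 1 was above replicate 2 by 0.30 and above replicate 3 by 1.02 (log2), so its order among these libraries, 1 over 2 over 3, was that of H19 but its gap to replicate 2 was smaller. Without any single library the log2 fold change was between −1.20 and −0.72.

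Meg3, the maternally expressed RNA of the Dlk1 cluster, had the opposite order to Dlk1. It was at 25.9 and 28.9 CPM among controls, compared with 24.0, 26.7 and 37.2 CPM in Igf1r-deleted cells, with replicate 3 highest of all 5. Its log2 fold change was 0.10 with an interval from −0.35 to 0.54 (adjusted p = 0.846, edgeR), and it turned to −0.12 without replicate 3 and to −0.039 with a term for sex. The ratio of Dlk1 to Meg3 was 3.39 and 3.20 in the controls and 2.51, 1.84 and 0.800 in the Igf1r-deleted libraries, below both controls in each, and was not tested. Rian, the next non-coding RNA of the cluster, was at 15.6 and 16.8 CPM in control cells, against 17.2, 15.7 and 18.2 CPM across the 3 deleted libraries.

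**Figure D2:**
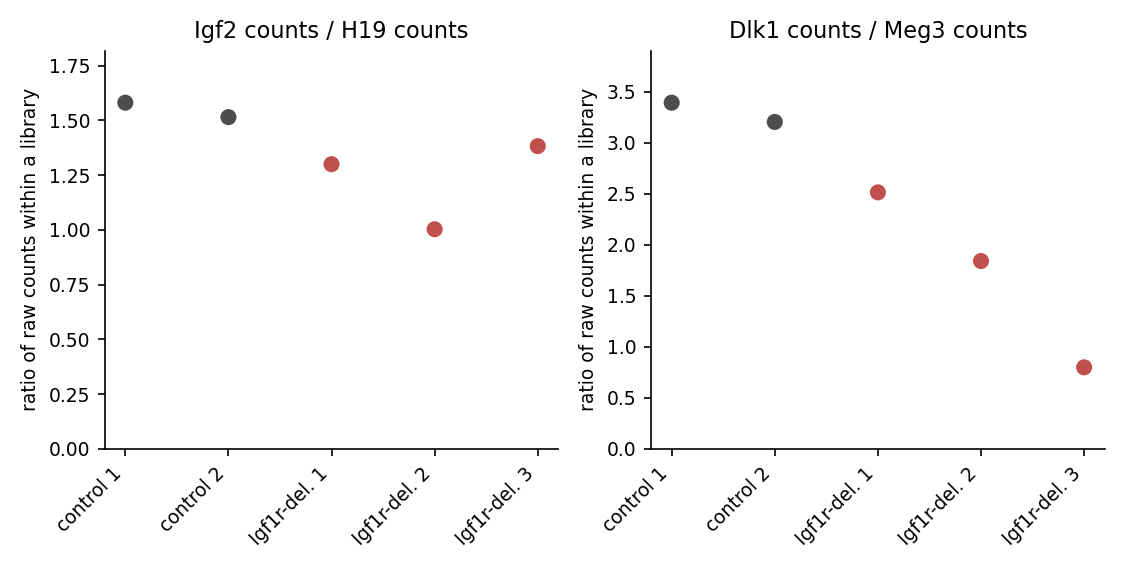
Ratio of the counts of neighbouring imprinted genes in each library, with points for the 2 control and 3 Igf1r-deleted libraries. The Dlk1 to Meg3 ratio is 3.39 and 3.20 in the controls and as low as 0.800 in Igf1r-deleted replicate 3, and the Igf2 to H19 ratio is between 1.0 and 1.58 in every library.

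Cdkn1c, which encodes the cell cycle inhibitor p57, was lower in each Igf1r-deleted library without the unevenness of Igf2. It was at 434 and 368 CPM with 1 intact Igf1r allele, and 315, 285 and 296 CPM with both alleles floxed. The latter lay within 0.15 of each other on the log2 scale and below both controls. For Cdkn1c the log2 fold change was −0.42 with an interval from −0.69 to −0.16, an unadjusted p of 0.00688 and an adjusted p of 0.354 (edgeR), and DESeq2 gave an adjusted p of 0.0376. Without control replicate 1 it was −0.30 at an unadjusted p of 0.0502, in a fit where the lone control is assumed to vary like the Igf1r-deleted libraries. Of the exon length of Cdkn1c, 30.7% is shared with the antisense gene Gm44732, whose reads could not be told from those of Cdkn1c because the use of strand in counting is not given in the sources used here.

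Plagl1, a zinc finger factor that activates several genes of this group, and Grb10, an adaptor that dampens insulin and IGF receptor signaling, overlapped between the genotypes. Plagl1 was at 317 and 264 CPM among controls, compared with 282, 228 and 249 CPM in Igf1r-deleted cells, a log2 fold change of −0.20 with an interval from −0.51 to 0.11. Grb10 was at 600.1 and 556 CPM in control cells, against 546, 570.1 and 554 CPM across the 3 deleted libraries. The whole range of Grb10 over the 5 libraries was 0.14 (log2), narrower than in all but 3.05% of the genes tested. Its log2 fold change was −0.05 with an interval from −0.29 to 0.19.

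Peg3, a paternally expressed zinc finger gene, was at 887 and 713 CPM with 1 intact Igf1r allele, and 655, 591 and 665 CPM with both alleles floxed. The genotypes did not overlap, though the gap between the lower control and the highest Igf1r-deleted library was smaller than that between the controls. Its log2 fold change was −0.33 with an interval from −0.64 to −0.02 (unadjusted p = 0.0404, adjusted p = 0.397, edgeR), and without control replicate 1 it was −0.17 at an unadjusted p of 0.26, under the same assumption for the lone control. The unadjusted p was also over the threshold without Igf1r-deleted replicate 2 (0.123) or 3 (0.0764). Peg3 was nearly level between replicates 1 and 3.

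Mest, a paternally expressed gene of the hydrolase fold family, and Ndn, which encodes the growth suppressor necdin, did not separate the genotypes. Mest was at 73.2 and 112 CPM among controls, compared with 129, 106 and 68.1 CPM in Igf1r-deleted cells, with the highest and the lowest library both Igf1r-deleted. Replicate 1 exceeded replicate 3 by 0.92 and replicate 2 by 0.29 (log2). The log2 fold change of Mest was 0.13 with an interval from −0.53 to 0.78, and it turned to −0.093 without Igf1r-deleted replicate 1 and to −0.15 without control replicate 1. Ndn was at 158 and 146 CPM in control cells, against 166, 141 and 135 CPM across the 3 deleted libraries. For Ndn the log2 fold change was −0.04 with an interval from −0.32 to 0.23. Of the Mest exon length 23.1% is shared with Copg2 on the other strand.

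Per kilobase of exon, the order of levels in the controls began with Cdkn1c at 197 ± 23.1 RPKM (SD, n = 2), then H19 at 103 ± 8.86. Igf2 at 68.6 ± 3.82, Grb10 at 63.6 ± 3.40 and Peg3 at 60.1 ± 9.20 RPKM followed, and neighbours among these overlapped. Ndn at 41.1 ± 2.19 and Plagl1 at 37.2 ± 4.78 RPKM overlapped each other, and Mest at 23.4 ± 6.91 RPKM was below both. Dlk1 at 15.9 ± 0.592 and Meg3 at 1.51 ± 0.117 RPKM were last. In the Igf1r-deleted libraries Cdkn1c was again highest at 147 ± 7.59 RPKM (SD, n = 3), and Igf2 at 37.2 ± 20.8 RPKM was at place 6. Igf2 ran from 25.0 to 61.2 RPKM there and overlapped H19, Grb10, Peg3, Ndn, Plagl1 and Mest.

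With edgeR no member passed an adjusted p of 0.05, and 0 of 15298 genes did (percent of genes called: 0), although 1897 genes, or 12.4%, were at an unadjusted p under 0.05 and DESeq2 called 200. At an unadjusted p under 0.05, 3 of the 9 genes other than Igf2 were lower (Dlk1, Cdkn1c and Peg3) and 0 were higher, against 6.75% lower and 5.65% higher among all genes. DESeq2 called 2 of the 9, Dlk1 and Cdkn1c, against 1.70% of genes. Without overlap between the genotypes were the same 3 of the 9, all lower, against 14.9% of genes lower and 31.0% in either direction. Igf2, which was selected on its values, was also lower without overlap and is left out of this count. The log2 fold change was negative for 7 of the 9, as for 47.7% of all genes, and their median was −0.20 beside 0.015 over all genes. The 9 were chosen as a list with earlier results of these data known.

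**Figure D3:**
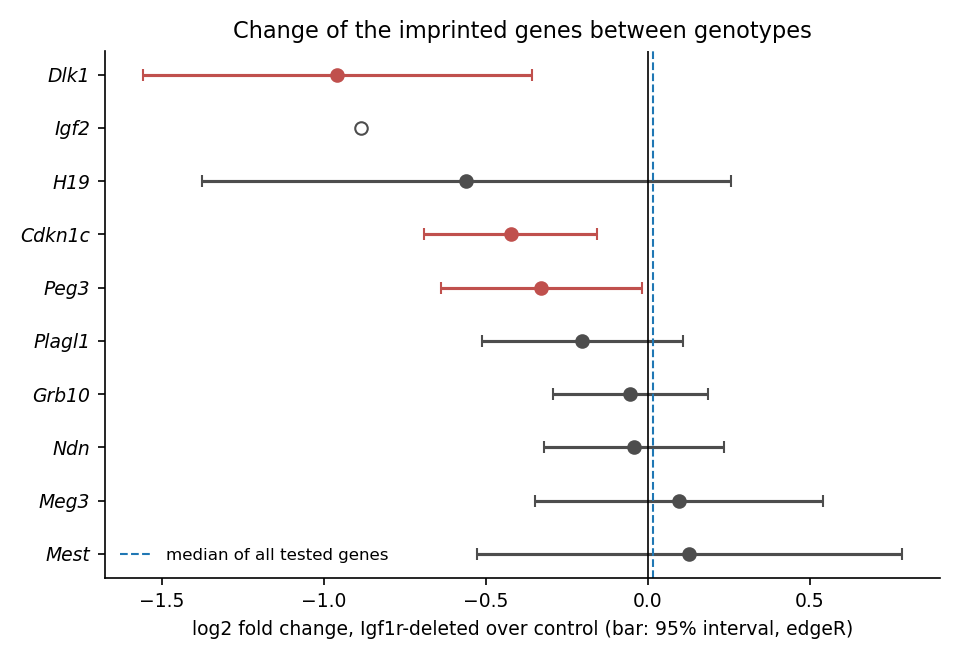
Log2 fold change of each imprinted gene, Igf1r-deleted over control, with 95% intervals from edgeR, and the median of all tested genes as a dashed line. Red marks the 3 genes whose interval leaves out 0 (Dlk1, Cdkn1c and Peg3), none of which passed an adjusted p of 0.05, and the open point for Igf2 has no interval because Igf2 was chosen for its values.

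Among the Igf1r-deleted libraries, 6 of the 9 were highest in replicate 1, as Igf2 was, against 37.8% of all genes (H19, Dlk1, Mest, Cdkn1c, Plagl1 and Ndn). For Cdkn1c, Plagl1 and Ndn the excess over each other library was at most 0.31 (log2), and it was 1.27 or more for Igf2. H19, Dlk1, Mest and Ndn, 4 of the 9, had the order replicate 1 over 2 over 3, as 18.5% of all genes did. Peg3 and Meg3 were highest in replicate 3 and Grb10 in replicate 2. Of the 9, H19 came closest to the size of the Igf2 differences, and Dlk1 and Mest exceeded replicate 3 by 1.02 and 0.92 and replicate 2 by 0.30 and 0.29. The other 6 exceeded replicate 3 by at most 0.30 and replicate 2 by at most 0.31.

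Likeness to Igf2 was also measured over all 5 libraries, as the root mean square difference in log2 CPM after each gene was centred on its own mean. Among 9100 genes with a mean of at least 10 CPM, H19 ranked 24 with a difference of 0.231 and Dlk1 ranked 59 with 0.326, beside a median of 0.70 over all genes. Cdkn1c, Plagl1, Peg3 and Ndn ranked 642, 1023, 1226 and 1761. Mest ranked 3098, Grb10 3823 and Meg3 7847. With a minimum of 1 CPM, H19 ranked 65 and Dlk1 207 of 13338.

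The 10 genes most like Igf2 were Ikzf1, Coro1a, Cytip, Arhgdib, Mansc4, Clec7a, Prkcb, Art4, Ptprc and Nrk. Several are known as leukocyte genes, among them Ptprc, which encodes the CD45 antigen, Coro1a and Ikzf1. Ptprc was at 31.1 and 25.5 CPM with 1 intact Igf1r allele, and 28.7, 12.5 and 12.2 CPM with both alleles floxed. Like Igf2, it was within or near the control range in replicate 1 and far lower in replicates 2 and 3. Ikzf1 differed from the Igf2 pattern by 0.127 and Nrk, on the X chromosome, by 0.197.

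Hematopoietic markers shared part of the Igf2 pattern. Their summed level was 726 and 482 CPM in control cells and 558, 372 and 235 CPM in replicates 1, 2 and 3. The sum was lower in control replicate 2 than in control replicate 1, whereas Igf2 was higher. It was also lower in Igf1r-deleted replicate 3 than in 2, where Igf2 was nearly equal (145 and 143 CPM). All 13 markers were highest in replicate 1 among the Igf1r-deleted libraries. Chondrocyte markers did the same in 6 of 6 tested, with a summed level of 69.4 and 39.6 CPM among controls, compared with 68.1, 29.2 and 24.6 CPM in Igf1r-deleted cells, while Matn1 was at or near 0. The summed adventitial fibroblast markers were at 25421 and 23969 CPM in control cells, against 22986, 15185 and 16642 CPM across the 3 deleted libraries, with 10 of 14 highest in replicate 1. Pi16, Mfap5, Serpinf1 and Pdgfrl were highest in replicate 3. Most of each sum was Fn1, at 18488 and 16143 CPM in control cells and 15556, 9625 and 10716 CPM in the deleted libraries. The epithelial sum was 824, 1221 and 557 CPM and the endothelial sum 588, 868 and 317 CPM in replicates 1, 2 and 3, both highest in replicate 2. Highest in replicate 1 were 3 of 19 myofibroblast markers and 10 of 16 matrix and lipofibroblast markers, against 37.8% of all genes. The GFP sort is meant to remove hematopoietic, epithelial and endothelial cells, in which Gli1-CreERT2 should not be active. The part of these cell types in the Igf2 and H19 pattern was not tested. In bulk libraries fewer cells of a type and less RNA per cell cannot be told apart.

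**Figure D4:**
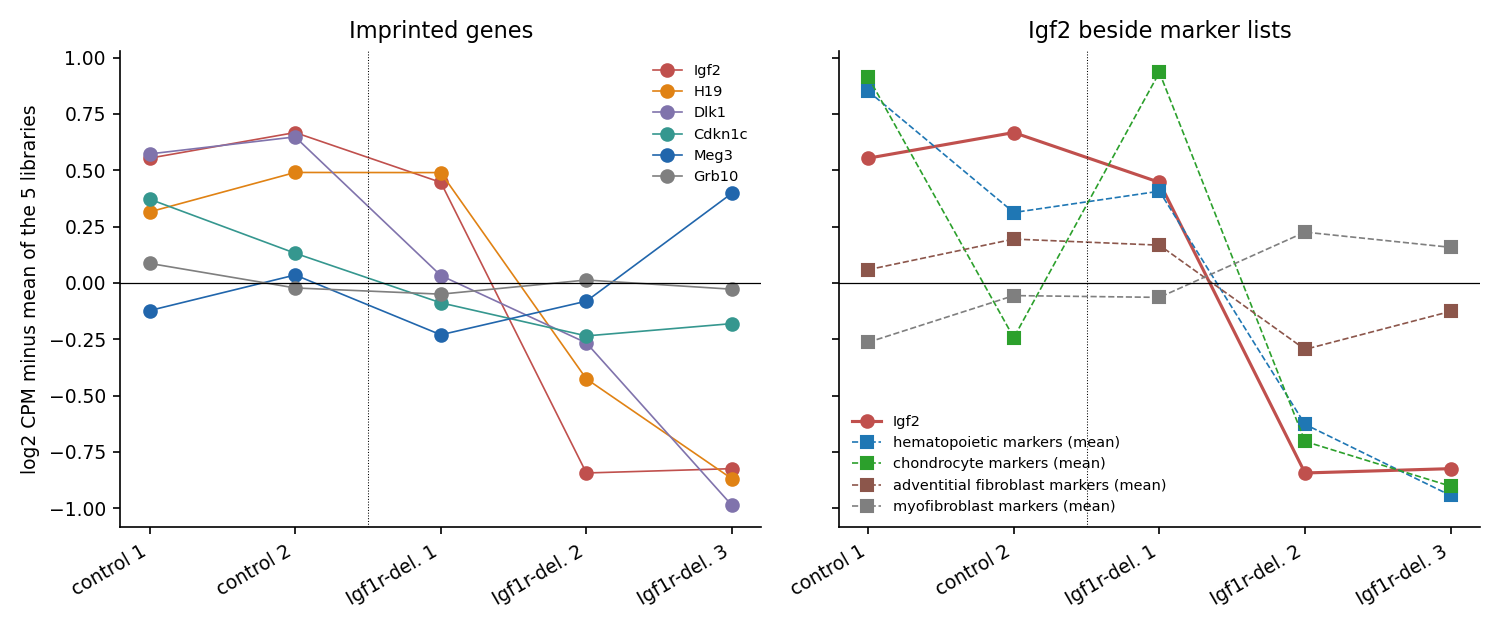
Log2 CPM minus the mean of the 5 libraries (y axis) in each library (x axis), for 6 imprinted genes on the left and for Igf2 beside the mean of 4 marker lists on the right, where lines only join the values of a gene or list. Igf2, H19 and the hematopoietic markers lie above 0 in the controls and in Igf1r-deleted replicate 1 and below 0 in Igf1r-deleted replicates 2 and 3, whereas Grb10 stays near 0.

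**Figure D5:**
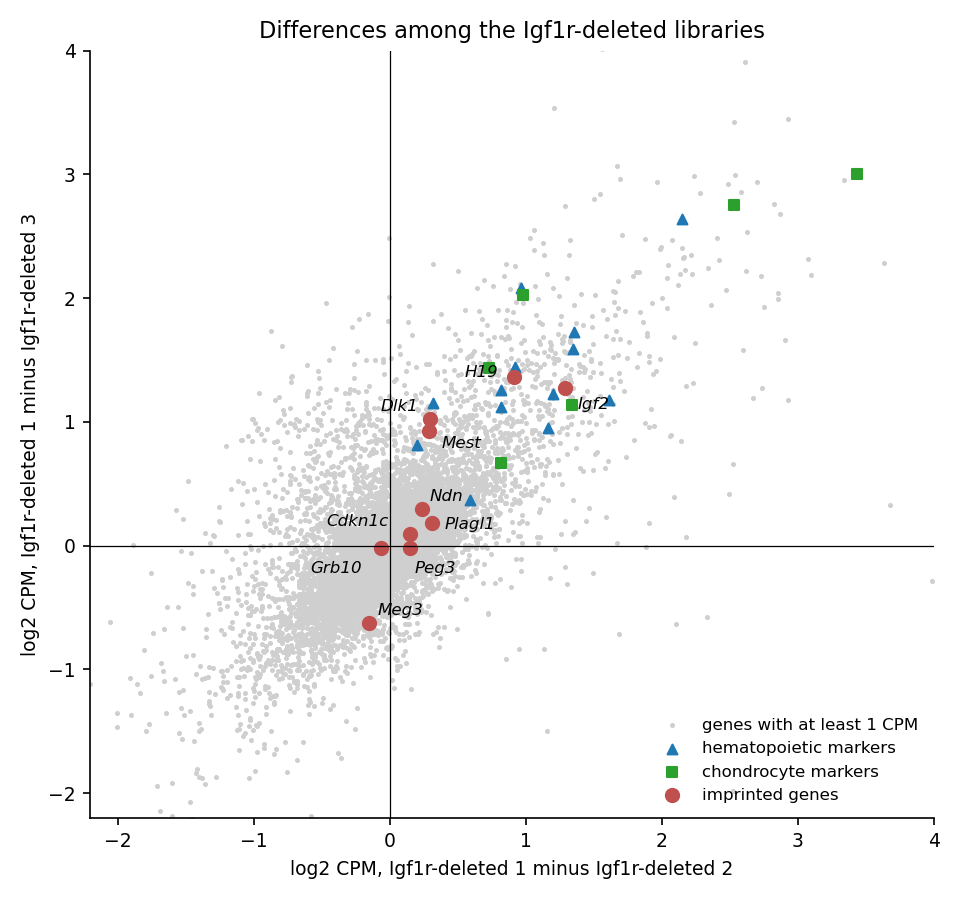
Log2 CPM of Igf1r-deleted replicate 1 minus replicate 2 (x axis) and minus replicate 3 (y axis) for genes with at least 1 CPM; a few genes lie beyond the axes. Igf2 (1.29 and 1.27) and H19 (0.92 and 1.36) lie among the hematopoietic and chondrocyte markers, whereas Grb10, Peg3 and Cdkn1c lie near 0.

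Igf1r-deleted replicates 1 and 3 have no control of the same sex, so with a sex term the genotype effect rests on replicate 2 alone. With this term the log2 fold change was −1.46 for Igf2, −0.83 for H19, −0.88 for Dlk1 and −0.49 for Cdkn1c. Of the 9 genes only Cdkn1c was then at an unadjusted p under 0.05 (0.0271), and Dlk1 was at 0.0555. In this fit, as in the fit without it, 0 genes passed an adjusted p of 0.05 with edgeR, and 826 genes were lower and 523 higher at an unadjusted p under 0.05.

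The wider imprinted genes were counted by the same measures. Of 54 listed, 44 were tested, and at an unadjusted p under 0.05 3 were lower and 1 was higher, 9.09% beside 12.4% of all genes. Without overlap were 13, or 29.5% beside 31.0% of all genes, and 21 were highest in replicate 1, or 47.7% beside 37.8%. Asb4, a ubiquitin ligase adaptor gene, was at 8.87 and 3.90 CPM with 1 intact Igf1r allele, and 3.34, 1.11 and 1.17 CPM with both alleles floxed, and so had replicate 1 above the others at a low level (log2 fold change −1.77, SE 0.553). Nnat, a paternally expressed gene for neuronatin, had the opposite direction at 109 and 137 CPM among controls, compared with 291, 168 and 173 CPM in Igf1r-deleted cells, with replicate 1 again highest. Zim1, beside Peg3, overlapped between the genotypes.

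Genes beside the 10 in the genome were tested as neighbours. Of 34, 11 did not overlap between the genotypes, 32.4% beside 31.0% of all genes. In the Igf2 and H19 region these were Mrpl23, Ctsd and Tssc4, near Cdkn1c Nap1l4 and Cars, and in the Dlk1 and Meg3 cluster Mirg. Near Mest it was Klf14, near Plagl1 Ltv1, near Grb10 Cobl and Fignl1, and near Ndn Snrpn. Several were at a low level, with 10 to 13 counts in a library for Mirg and 8 to 33 for Klf14. Snrpn had 54 to 99 counts and Mrpl23 70 to 110. Mirg had a log2 fold change of −0.22 at an unadjusted p of 0.692 (edgeR). Ctsd, the lysosomal protease cathepsin D, was at 551 and 434 CPM in control cells, against 418, 353 and 344 CPM across the 3 deleted libraries. Fignl1 was at 3.37 and 4.80 CPM with 1 intact Igf1r allele, and 7.45, 8.52 and 7.85 CPM with both alleles floxed (log2 fold change 0.96, adjusted p = 0.0156 with DESeq2). Ins2 and Th, next to Igf2, had at most 3 counts in any library.

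The partners of Igf2 in IGF signaling were tested as a further list. Of 15 tested, 6 were lower and 1 was higher at an unadjusted p under 0.05, 46.7% beside 12.4%, and this count includes the deleted gene Igf1r. Igf2r, the maternally expressed receptor that clears IGF2, was at 622 and 553 CPM among controls, compared with 529, 432 and 402 CPM in Igf1r-deleted cells, again highest in replicate 1 (log2 fold change −0.37, SE 0.143). Insr, the insulin receptor, had a log2 fold change of −0.38, the adaptor Irs2 −0.83, the binding protein Igfbp3 −0.93 and the mRNA-binding protein Igf2bp2 −0.49. In each of these the controls differed more than the lower control did from the highest Igf1r-deleted library. Irs2 was at 585 and 387 CPM in controls and 297, 245 and 276 CPM in Igf1r-deleted cells. Igfbp3 was at 264 and 151 CPM, against 141, 97.2 and 87.4 CPM. DESeq2 gave adjusted p-values of 0.0042 for Irs2 and 0.0459 for Igfbp3. Igf1, the other ligand, was at 457 and 431 CPM in control cells, against 553, 509 and 516 CPM across the 3 deleted libraries, above both controls in each. In each Igf1r-deleted library, therefore, Igf1 was above both controls and Igf2 below them. For Igf2 in replicate 1 the gap was small (350.0 CPM beside 377 and 408 CPM in the controls).

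Of 12 regulators of imprints tested, 0 were lower and 3 higher at an unadjusted p under 0.05, namely Zfp57, Dnmt1 and Smchd1, beside 6.75% of all genes lower and 5.65% higher. Zfp57, a zinc finger protein that maintains imprints, was at 13.1 and 16.9 CPM with 1 intact Igf1r allele, and 19.2, 32.0 and 38.4 CPM with both alleles floxed, so replicate 1 was nearest the controls for this gene as for Igf2. Of 16 tested genes of a fetal growth list, Igf2bp2 was lower and Mycn, Mki67 and Top2a were higher at an unadjusted p under 0.05, with log2 fold changes of 0.45, 0.59 and 0.46 for the latter 3. These are 1 lower and 3 higher of 16, beside the same shares of all genes. None of these passed an adjusted p of 0.05 with edgeR or DESeq2.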

How the data were processed

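RNA-Seq libraries of GFP-sorted cells, 2 control and 3 Igf1r-deleted, were made with a NEBNext Ultra kit and sequenced by Genewiz. The submitters' processing notes name Trim Galore, Bowtie2 and the mm10 build, and reads were then summed per gene. The authors deposited raw counts for 23478 gene symbols, without normalization. Groups and replicate numbers came from the sample labels. The table also had 7 unnamed empty columns, which hold no sample.

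Genotypes were compared on these counts in R 4.3.3 with edgeR 4.0.16 and limma 3.58.1: quasi-likelihood F test, two-sided, TMM factors, filterByExpr, genotype as the only term, Benjamini-Hochberg adjustment over 15298 genes. Log2 CPM used a prior count of 2. RPKM used the union of exons of GENCODE M21 on mm10, to which 22072 symbols matched 1 gene. Within a genotype, the chi-square between libraries was 23.2 to 50.7 for each degree of freedom, where counting error alone gives about 1, so the spread between libraries, not depth, sets the precision.

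The 10 genes, the gene lists and the rules for naming others were chosen with earlier results of these data known. Named beside the 10 were Igf1r, up to 5 wider imprinted genes per direction at an unadjusted p under 0.05 without overlap between genotypes, neighbours without overlap, IGF partners and listed regulators at that p, and the 10 genes most like Igf2. Zim1, Rian, Ins2 and Th were named after their values were seen. Alternatives were DESeq2 1.42.0, limma voom, robust dispersion, other scalings, filters of at least 1 count in any library or 10 in every library, a replicate block, a sex term and leaving out each library. Promoter and microRNA sequences came from RefSeq tables on GRCm38.p6.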

Additional observations from a re-analysis of the deposited data

How the results depend on the processing

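Alternatives were tried for the genotype comparison. With edgeR 0 genes passed an adjusted p of 0.05, with DESeq2 200 and with a replicate block 136, and leaving out a library gave 0 to 45 (45 without control replicate 2, 5 and 4 without Igf1r-deleted replicates 1 and 2). Where a control is left out, the lone control is assumed to vary like the Igf1r-deleted libraries. With the sex term the genotype effect rests on Igf1r-deleted replicate 2 against both controls. Among the 9 genes other than Igf2, 2 passed with DESeq2, 1 with the block (Dlk1, adjusted p = 0.0449) and 0 without any single library. At an unadjusted p under 0.05, 3 of the 9 were lower, 2 with library totals, 1 with the sex term, which was added after seeing the data, and 1 to 4 without a library (1 without control replicate 1, 2 without Igf1r-deleted replicate 2 or 3, 4 without Igf1r-deleted replicate 1). Igf2 was selected on its values, so no count at a p-value is given with it. The number of the 9 without overlap was 3, and 3 to 6 without a library (6 without Igf1r-deleted replicate 1, beside 55.8% of all genes). Over all genes that share was 31.0%, and 39.9% to 62.4% with a library fewer. Over all genes 1032 were lower and 865 higher, 252 to 1760 and 181 to 1423 without a library (lowest without control replicate 1, highest without Igf1r-deleted replicate 1), 1343 higher with library totals and 523 higher with the sex term. Library totals made 37.3% of log2 fold changes negative beside 47.7% with TMM, and moved the median of all genes from 0.015 to 0.088.

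Of 150 values of the 10 genes under an alternative, 10 turned sign, all near 0. Meg3 was −0.11 with the block and −0.039 with the sex term, and −0.12 (no Igf1r-deleted replicate 3) to 0.21 when a library was left out. Mest ran from −0.15 (no control replicate 1) to 0.45 when a library was left out, and was −0.093 with no Igf1r-deleted replicate 1. Grb10 was 0.020 with library totals. Ndn was 0.028 with library totals and 0.012 with the block, and ran from −0.14 to 0.013 when a library was left out, with 0.0077 lacking control replicate 1. The count highest in Igf1r-deleted replicate 1 was 7 of 10 under every scaling, beside 37.8% of all genes with TMM. This count holds Igf2, which was selected on its values, and is a description. Replicates 1 and 2 share only a number between genotypes: their differences correlated at r = 0.19 across 15298 genes in the 2 pairs, and genes are not independent replicates, so the block was not taken as a pairing.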
